A study of Mus musculus with 6 samples.

Results

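The NRF2 binding sites found in wild-type mouse embryonic fibroblasts (MEFs) after leucine withdrawal were compared with those found in complete medium. The members were all peaks of the wild-type peak lists: 2336 in complete medium and 5980 without leucine, which is 8316 of the 16057 peaks in the 4 lists of the series. A pair of peaks was called shared when the windows overlapped by at least 1 bp on the same chromosome. Peaks without leucine that overlapped none in complete medium are called gained, and peaks in complete medium that overlapped none without leucine are called missing.

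The series mapped NRF2 by ChIP-seq (chromatin immunoprecipitation with sequencing) in MEFs of the 129S6/SvEvTac strain, with antibody ab62352 from Abcam. One pair of conditions is described here: wild-type MEFs held for 24 h in complete DMEM, a standard culture medium, and wild-type MEFs held for 24 h in DMEM from which leucine had been left out. Both lists were called against the same input library, from wild-type cells in complete medium, so the cells without leucine had no input of their own medium. The GCN2 knockout MEFs of the series, which had 3141 peaks in complete medium and 4600 without leucine, were used only to see which sites recurred.

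Each condition was 1 library, so differences between the lists could not be set against replicates and carry no p-values. The 95% intervals are exact Clopper-Pearson intervals for shares and cover counting error only. Read depth is unknown for both libraries, and a peak absent from a list fell under the authors' threshold, which does not show that the site was unbound. A peak list of 1 factor does not measure which genes were expressed, so it cannot check the cell type. Among 12 fibroblast markers, 0 carried a peak in the 10 kb on either side of the transcription start site (TSS) in complete medium, and 1, Thy1, carried one without leucine. Over all 21896 protein-coding genes the shares with such a peak were 2.28% and 6.17%.

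NRF2, encoded by Nfe2l2, is a transcription factor that pairs with small Maf proteins and binds antioxidant response elements near genes for glutathione synthesis, thioredoxin cycling, detoxification, NADPH supply, iron storage and heme breakdown. KEAP1 marks it for degradation in unstressed cells, and oxidants or electrophiles relieve that brake. Leucine shortage leaves tRNA uncharged, which activates the kinase GCN2 and raises translation of the transcription factor ATF4. ATF4 shares some target genes with NRF2, among them the cystine transporter gene Slc7a11.

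The following promoter stretches show the letters at the centre of shared peaks, since the antioxidant response element was the feature by which shared promoters stood out. They were taken from RefSeq promoter windows of 300 bases on build GRCm38.p6, the assembly also called mm10, and are written 5′ to 3′ on the strand named, with the motif match in capitals. The core element was searched as TGACNNNGC and the AP-1 motif as TGANTCA, each on both strands. TGACTCAGC matches both.
Prdx1 (peroxiredoxin 1), chr4:116685446-116685494, minus strand: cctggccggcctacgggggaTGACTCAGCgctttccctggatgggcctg
Txnrd1 (thioredoxin reductase 1), chr10:82859094-82859142, minus strand: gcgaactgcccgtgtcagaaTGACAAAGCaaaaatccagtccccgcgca
Cxcl10 (a chemokine), chr5:92348937-92348985, plus strand: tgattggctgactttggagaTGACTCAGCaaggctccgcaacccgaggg
Htatip2, chr7:49759443-49759491, plus strand: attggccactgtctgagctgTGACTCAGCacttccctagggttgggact
Srsf2 (a splicing factor), chr11:116853246-116853294, minus strand: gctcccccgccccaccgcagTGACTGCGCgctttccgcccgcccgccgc
The element centre lay 1 bp from the peak centre at Prdx1 and Srsf2, 2 bp at Txnrd1, 6 bp at Cxcl10 and 13 bp at Htatip2. The shared Aox1 promoter (aldehyde oxidase) held no core element and carried an AP-1 match at the peak centre.
Aox1, chr1:58029729-58029775, plus strand: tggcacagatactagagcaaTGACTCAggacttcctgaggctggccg
For contrast, these are matches under gained peaks at Osgin1 and Slc20a1 and under a missing peak at Tyw5. The Slc20a1 peak lay in intron 6 of 10 of that gene in the authors' annotation and at an internal start in RefSeq.
Osgin1 (AP-1 match only), chr8:119437030-119437076, plus strand: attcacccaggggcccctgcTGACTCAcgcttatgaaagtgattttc
Slc20a1 (a phosphate transporter), chr2:129206911-129206959, minus strand: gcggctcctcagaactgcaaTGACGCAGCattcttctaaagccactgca
Tyw5, chr1:57406808-57406856, minus strand: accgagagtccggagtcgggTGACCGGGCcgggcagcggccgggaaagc

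The shared sites were the high-scoring sites of both lists. Of the peaks without leucine, 536 of 5980 were shared (8.96%, 8.25 to 9.72) and 5444 were gained (91.0%). Of the peaks in complete medium, 535 of 2336 were shared (22.9%, 21.2 to 24.7) and 1801 were missing (77.1%). Sharing was concentrated at the top: 216 of the 233 peaks in the highest-scoring 10% of the complete-medium list were shared (92.7%, 88.6 to 95.7), against 119 of 234 in the next 10% (50.9%) and 11 of 234 in the last (4.7%). Without leucine the highest 10% held 387 shared peaks of 598 (64.7%, 60.7 to 68.5), the next 68 (11.4%) and the last 6 (1.0%).

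**Figure D1:**
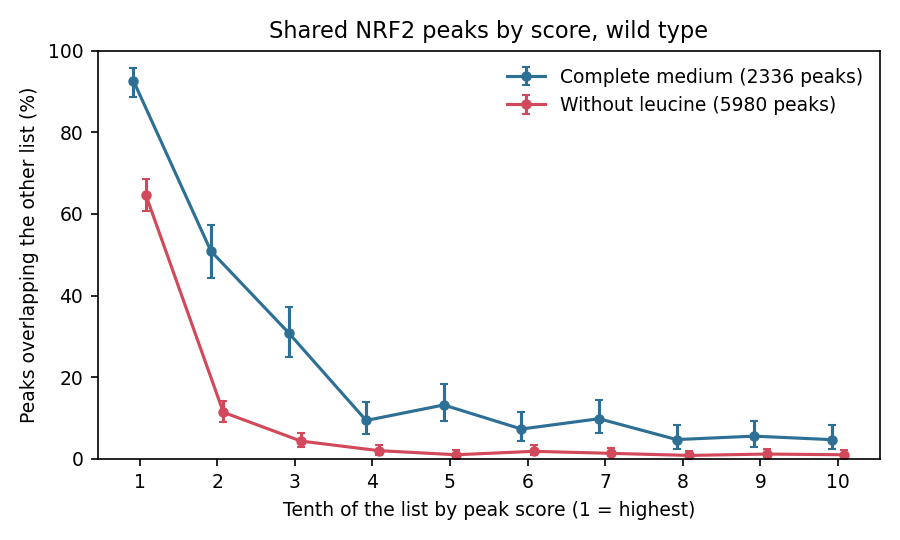
Share of peaks (%) that overlapped the other wild-type list, in 10 equal steps of each list ranked by peak score (1 = highest), with exact 95% intervals as bars. The share was 92.7% in the highest step in complete medium and 64.7% in the highest step without leucine, and from step 4 on it was at most 13.2% in complete medium and 2.01% without leucine.

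Most peaks also lacked a partner when the lists were of equal length. When the list without leucine was cut to its 2336 highest-scoring peaks, 492 of them (21.1%) were shared and 1844 (78.9%) were gained, while 1845 complete-medium peaks (79.0%) were missing. The cut fell among peaks of score 35, of which 59 of 102 were kept, in order of chromosome name and start. All places given below order peaks of equal score in the same way, so different places can stand for the same score. Without leucine, for example, place 2588 (Steap3) and place 3427 (Keap1) had the same score. Where sites were shared, the windows nearly coincided, with a median shift of 24 bp (quartiles 11 and 46) over 536 pairs. Few gained peaks lay beside a complete-medium site: 25 were within 1000 bp of a complete-medium peak and 242 (4.45%) within 10 kb.

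Shared sites sat at promoters more often than gained or missing sites did. Promoters held 29 of the 536 shared peaks (5.41%, 3.65 to 7.68), 132 of the 5444 gained (2.42%, 2.03 to 2.87) and 35 of the 1801 missing (1.94%, 1.36 to 2.69). Exons went the other way, with 4 shared peaks (0.746%, 0.204 to 1.9), 321 gained (5.9%, 5.29 to 6.56) and 96 missing (5.33%, 4.34 to 6.47). For promoters and for exons the interval of the shared sites overlapped neither of the others. Introns held 43.5%, 44.6% and 45.0% of shared, gained and missing peaks, and intergenic DNA 47.2%, 42.0% and 43.4%.

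Repeat content was alike in sum but not in kind. Windows annotated to any repeat made up 25.2% of shared, 25.1% of gained and 26.4% of missing peaks. Short interspersed elements (SINEs) were under 13.4% of shared peaks (10.7 to 16.6), 8.19% of gained (7.48 to 8.95) and 8.16% of missing (6.94 to 9.52). Long interspersed elements (LINEs) were under 2.8% of shared (1.57 to 4.57), 6.45% of gained (5.81 to 7.13) and 5.77% of missing peaks (4.74 to 6.95).

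Because gained peaks mostly scored low, the classes were also compared inside the highest 10% of the list without leucine, where 387 peaks were shared and 211 gained, a comparison chosen after seeing the data. Promoters held 5.68% of these shared peaks (3.6 to 8.48) and 0.948% of the gained (0.115 to 3.38). Exons held 0.775% of the shared (0.16 to 2.25) and 3.79% of the gained (1.65 to 7.33), intervals that overlap. Repeats of any kind were under 37.0% of the gained (30.4 to 43.9) and 23.8% of the shared (19.6 to 28.3). LINEs took 8.06% of the gained (4.76 to 12.6) and 2.58% of the shared. The order of SINEs turned, with 15.2% of the gained (10.6 to 20.7) and 13.2% of the shared (9.97 to 17), intervals that overlap. The highest 10% in complete medium held only 17 missing peaks, too few to describe in the same way.

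**Figure D2:**
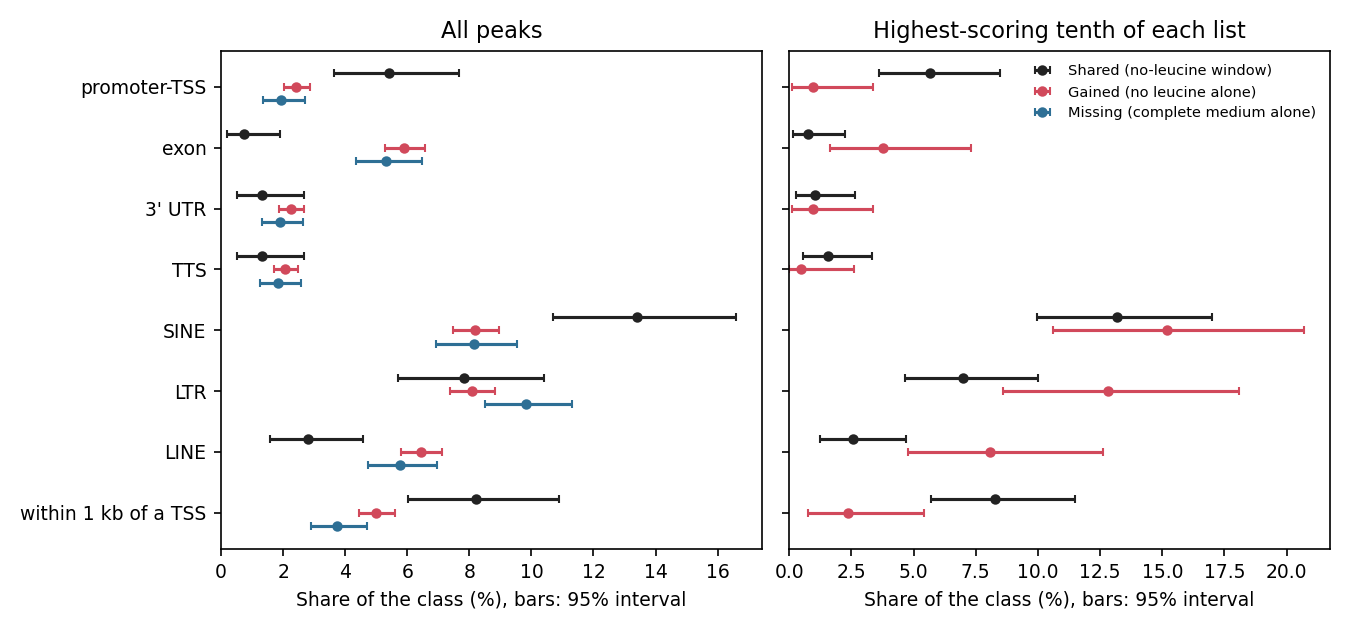
Share of each class (%) in each genomic feature, repeat family or distance range, with exact 95% intervals, for all peaks (left) and for the highest-scoring 10% (right, missing class not drawn; the x axes differ in range). TTS is the transcript end. Shared peaks had the highest promoter share (5.41%) and the lowest exon share (0.746%) among all peaks.

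Shared peaks were nearer to genes. Within 10 kb of a TSS lay 34.1% of shared (30.1 to 38.3), 27.7% of gained (26.5 to 28.9) and 23.3% of missing peaks (21.3 to 25.3), and the median distance was 21060, 24724 and 30040 bp. The intervals of the medians overlapped between shared (18463 to 25153) and gained peaks (23836 to 26243). In the highest 10% without leucine, 34.1% of shared (29.4 to 39.1) and 25.6% of gained peaks (19.8 to 32) lay within 10 kb, intervals that overlap. The median GC content of the 300 bp windows was 50.2% for shared, 52.2% for gained and 51.5% for missing peaks, but GC-rich windows of 60% or more were commonest among shared peaks, at 8.58%, 4.63% and 3.0%. At equal list length the gained peaks had 25.9% within 10 kb and a median GC content of 51.5%, the same as the missing peaks. In the highest 10% the order of the GC medians turned, with 49.5% for gained peaks (48.5 to 50.2), 46.8% for the 17 missing peaks and 50.2% for shared peaks (49.8 to 50.8). The intervals of gained and shared peaks overlap.

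**Figure D3:**
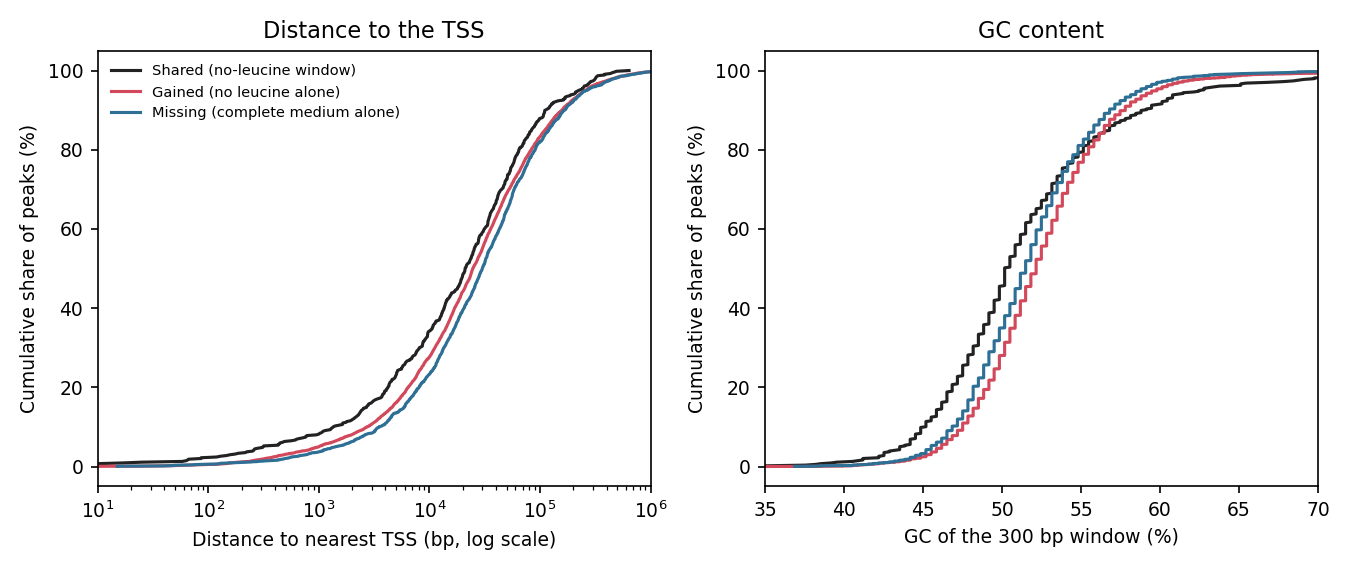
Cumulative share of peaks (%) against distance to the nearest TSS in bp (left, log axis drawn from 10 bp) and against GC content of the window in % (right, drawn from 35 to 70%). The shared curve lies above the others at most distances, and in GC content it is the broadest, with the lowest median (50.2%) and the largest share at or above 60% (8.58%).

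The knockout lists, which had no part in defining the classes, held most shared sites and few of the rest. A peak in either GCN2 knockout list overlapped 72.0% of shared peaks (68 to 75.8), 3.95% of gained (3.45 to 4.5) and 5.27% of missing peaks (4.29 to 6.41). Among gained peaks, 98 recurred only in knockout cells without leucine, 66 only in knockout cells in complete medium and 51 in both. In the highest 10% of the list without leucine, 81.4% of shared peaks (77.2 to 85.1) and 34.1% of gained peaks (27.8 to 40.9) recurred in either knockout list. The knockout lists differ in length, and all 4 libraries were single.

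The 9 lists of antioxidant, iron, heme and regulator genes held 169 genes, of which 39 had a peak within 10 kb in complete medium, 47 without leucine and 34 in both. Over all 21896 protein-coding genes the shares were 2.28%, 6.17% and 0.827%. The share of listed genes with a peak in both was 20.1%, and 33 of the 34 genes carried it at a shared site. Genes with a peak without leucine alone numbered 13 (7.69%, against 5.35% of all protein-coding genes), and those with a peak in complete medium alone numbered 5 (2.96%, against 1.45%). The share without leucine alone was thus near that of all genes. At equal list length each list had a peak at 39 of these genes, with 32 in both, 7 without leucine alone and 7 in complete medium alone.

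The 35 shared peaks of these genes stood near the top of their lists, with 31 in the highest 10% without leucine and a median place at 2.22% of the list. Shared peaks as a class stood high too, with 387 of 536 in the highest 10% and a median place at 5.25%. The 17 gained peaks had a median place at 30.1%, 6 were in the highest 10%, and 1, at Osgin1, was at a promoter. Of all 5444 gained peaks, 211 were in the highest 10%, the median place was 50.4%, and 2.42% were at promoters. A knockout list held 28 of the 35 shared peaks and 6 of the 17 gained peaks, beside 72.0% of all shared and 3.95% of all gained peaks. In the highest 10% without leucine those shares were 81.4% and 34.1%. How far place in the list set the counts of the listed genes was not tested.

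**Figure D4:**
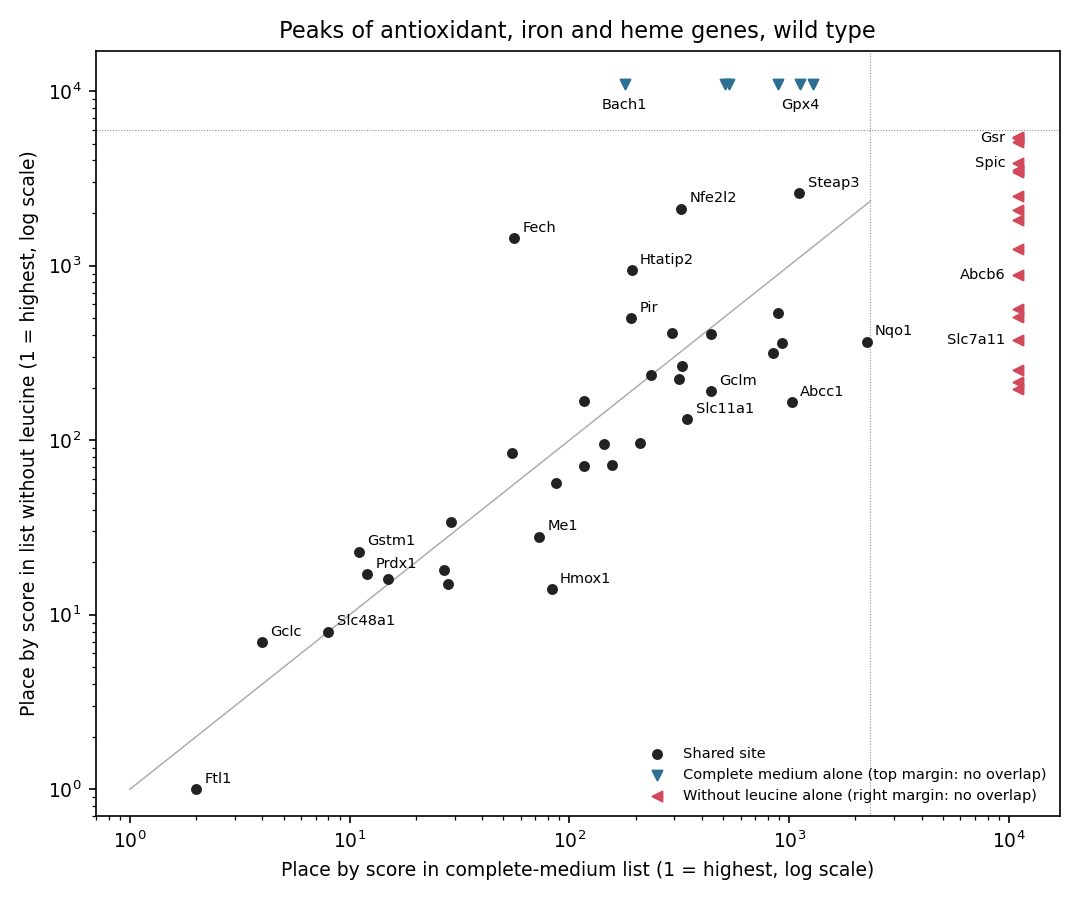
Place by score in the complete-medium list against place in the list without leucine (1 = highest, log axes) for peaks of the 9 gene lists. Black points are shared sites, the line marks equal places, dotted lines mark the list lengths, and triangles in the margins are peaks of 1 list only; Ftl1 was at place 2 and place 1, and Nqo1 lies far below the line.

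Among genes of glutathione supply, Gclc and Gclm had shared peaks, and Slc7a11, Slc3a2 and Gsr had a peak in 1 list only. Over all peaks, 91.0% of those without leucine were gained and 77.1% of those in complete medium were missing. Gclc, the catalytic subunit of glutamate-cysteine ligase, had a shared peak upstream of the TSS (chr9:77750588-77750888 in complete medium) at place 4 in complete medium and 7 without leucine. Gclm, its modifier subunit, was shared at its start at places 440 and 191. Slc7a11, the light chain of the cystine transporter, had a gained peak in intron 2 of 11 (chr3:50438109-50438409) at place 373, with the nearest complete-medium peak 1396911 bp away. Its heavy chain Slc3a2 had a missing peak in intron 1 of 8 at place 890. Gsr, glutathione reductase, was gained in its first exon at place 5396, near the end of the list. Neither the Slc7a11, the Slc3a2 nor the Gsr site was in a knockout list.

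Thioredoxin and peroxide-removing genes had the largest share of members with a peak in both lists, 7 of 21 (33.3%), each at a shared site. Prdx1 stood at places 12 and 17, Txn1 (thioredoxin 1) at 15 and 16, and Txnrd1 at 27 and 18, all at promoters. Sod1, Srxn1, Prdx6 and Txn2 were also shared. Catalase (Cat, intron 1 of 12, place 1815) and Osgin1 (promoter, chr8:119436850-119437150, place 252) were gained. Gpx4, the lipid peroxidase, had a missing peak at place 1121 in complete medium, and gained peaks beyond the 10 kb limit at 11228 and 13249 bp.

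Most detoxifying enzymes with a peak also had it at a shared site. Gstm1, Gstm3 and Gstm6 each had a shared peak in intron 7 of 7, and these paralogs are close copies between which reads can be hard to assign. Gstp2 was shared upstream at places 28 and 15. Nqo1, the quinone reductase, had a shared promoter peak that moved from place 2249 of 2336 to place 367 of 5980, the largest shift toward the top by share of list length among shared pairs within 10 kb. Htatip2 kept its promoter peak (place 192, then 940) and had 2 gained peaks in intron 3 of 5 at places 196 and 215, both also in a knockout list. Mgst2 and Esd, a formylglutathione hydrolase, were gained at places 563 and 510, and both sites were in both knockout lists.

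For NADPH supply, Me1 (malic enzyme) was shared at its promoter at places 73 and 28. Pgd, of the pentose phosphate pathway, had a peak in each list at a different site, at -4038 bp relative to the start in complete medium and at 1299 bp when leucine was absent. Among efflux genes, Abcc1 was shared at places 1024 and 165, and Abcc4 and Mvp, the major vault protein, were shared too. Abcc3 was gained at place 5446, and Abcc2 had a missing peak at place 512 and, just past the 10 kb limit at 10843 bp, a gained one at 1793.

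Iron storage genes kept their sites. Ftl1, the ferritin light chain, stood at places 2 and 1 (chr7:45460831-45461131 without leucine), and Fth1, the heavy chain, at 29 and 34. Steap3, a ferric reductase, and Slc11a1, a metal transporter, were shared. Of the 9 lists, the heme list differed most by count, with 3 genes in complete medium and 7 of 24 without leucine, or 5 at equal length. The share of all protein-coding genes with a peak also rose, from 2.28% to 6.17%. In the GCN2 knockout lists the heme list had 4 genes in complete medium and 6 without leucine. Slc48a1, a heme transporter, stood at place 8 in both lists. Hmox1, heme oxygenase 1, had a pair of shared upstream peaks, at places 83 and 156 in complete medium and 14 and 72 without leucine. Fech, the enzyme that inserts iron to form heme, went the other way, from place 56 to place 1430. Abcb6, a porphyrin transporter, was gained in intron 1 of 18 at place 881, and this site was also in the knockout list without leucine. Urod, of heme synthesis, was gained at place 1249, Flvcr2, a heme transporter relative listed under its older name, at 2500, and Spic, the regulator of iron-recycling macrophages, at 3881.

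Among regulators, Nfe2l2 itself had a shared peak in intron 1 of 4 at places 322 and 2117. Mafg, a small Maf partner, was shared at places 55 and 84, and Sqstm1, the KEAP1-binding autophagy receptor, had a pair of shared peaks. Keap1 was gained in its first exon at place 3427, and Maff at 3532. Bach1, the heme-binding repressor of antioxidant response elements, kept one site and lacked another without leucine, both in intron 1 of 4. The missing peak, 1098 bp from the TSS (chr16:87699902-87700202), stood at place 178 in complete medium, and a knockout peak overlapped it in complete medium only. The shared peak, beyond the 10 kb limit at 14242 bp, stood at places 280 and 222.

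The ATF4 and amino acid response list had few sites in either condition. Of 48 genes, 1 had a peak in complete medium (Eif2ak2) and 3 without leucine (6.25% without leucine alone, against 5.35% of all genes). At equal length the count without leucine was 1, and with a limit of 50 kb it was 7, against 3 in complete medium. The genes within 10 kb were Psat1, of serine synthesis, at its promoter at place 3561, Cars, a tRNA synthetase, at 2001, and Pck2, at 4313. None of these sites was in a knockout list. AP-1 family genes numbered 15, and 1, Fosl1, was gained at place 430, a site also in the knockout list without leucine. That is 6.67% of the list, near the 5.35% of all protein-coding genes with a peak without leucine alone.

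Autophagy and lysosome genes with a peak numbered 2 of 38 in complete medium (Sqstm1 and Tfe3) and 6 without leucine. Tfe3, a lysosomal gene regulator, was shared at places 65 and 25. Atp6v1f, a proton pump subunit, was gained at place 272 and Ctsd, cathepsin D, at 350, and the Ctsd site was in both knockout lists. Tfeb and Map1lc3a were gained at places 2914 and 4510. The gained share, 10.5% of the list, stands beside 5.35% of all genes. Among chaperone genes, Hsp90ab1 was shared at places 638 and 1753, while Hspb8, a small heat shock protein, had 3 gained peaks in intron 1 of 2, the first at place 159 and in both knockout lists, and a missing peak 13981 bp from the TSS. Hspb1 had 1 gained peak at place 3754.

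Places in lists of unequal length do not measure a change in binding. Of 536 shared pairs, 443 stood higher by share of list without leucine and 93 in complete medium, a split that the longer list favours. At equal length 492 pairs had a place in both lists, and 257 stood higher without leucine, 232 in complete medium and 3 at the same place. This split also depends on the order given to peaks of equal score. Among shared pairs within 10 kb of a TSS, the largest shifts by share of list length toward the top without leucine, after Nqo1, were at 5430425K12Rik (2092 to 255), Numa1 (2278 to 941), the promoter of Eef1a1, a translation elongation factor (1874 to 143), and Slc22a12, a urate transporter (1945 to 481). The largest the other way were at Cdc26 (353 to 5617), H6pd, an NADPH-producing enzyme (681 to 5324), Cyb5a (509 to 4458), Wdfy4 (1145 to 5837) and A530013C23Rik (271 to 3037).

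Beyond the lists, the highest-scoring shared sites near genes also included Creld1 (place 5 in both), the bromodomain gene Brd2 (6 and 4), Trp53cor1 (10 and 19), Ccl1 (16 and 12) and Neat1, a nuclear long RNA (36 and 88). High-ranking gained peaks within 10 kb were at Rn45s (place 116), Hspb8 (159), Htatip2 (196), Pitpnm2 (198), 1600014C10Rik (207) and Osgin1. Rn45s, the ribosomal RNA precursor, also led the missing peaks at place 46, with 2219 bp between the starts of the gained window and the nearest one in complete medium. A further gained window at Rn45s stood at place 130. Mapping settings are not given, and how reads were placed at this locus was not tested. After it the missing list was led by 4933417E11Rik (145), Slc14a2, a urea transporter (154), Bach1 (178) and Hrsp12 (213), with Slc6a6, the taurine transporter, at 305. Gained promoters were led by Osgin1, Kansl1 (556) and Rcvrn (682), and missing promoters by Lrrc14b (459), Rabggtb (583) and Smg5 (627).

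Antioxidant response elements were found in most shared promoters, while their share in gained promoters was close to that of all promoters. The core element was in 12.4% of all 32851 promoter windows (4071). It was in 15 of 18 promoters under a shared peak (83.3%, 58.6 to 96.4), 7 of 57 under a gained peak (12.3%, 5.08 to 23.7) and 3 of 14 under a missing peak (21.4%, 4.66 to 50.8). At equal length 4 of 18 gained promoters held it (22.2%). These windows are RefSeq promoters, not the authors' promoter class, and some lie at other starts. The shared Gm12092 peak, for example, lay at -47233 bp from the TSS in the authors' annotation. Among protein-coding promoters, chosen after seeing the data, 9 of 11 shared (81.8%, 48.2 to 97.7) held the element. So did 6 of 34 gained (17.6%, 6.76 to 34.5), 2 of 8 missing (25%, 3.19 to 65.1) and 2759 of all 21262 (13%). The AP-1 motif was in 7.81% of all windows, 10 of 18 shared (55.6%, 30.8 to 78.5), 8 of 57 gained (14.0%, 6.26 to 25.8) and 2 of 14 missing (14.3%). The 2 motifs are not separate counts, since 8 of these 10 shared promoters held TGACTCAGC, which matches both. The C/EBP-ATF composite, searched as TGATGNAAN, was in 3.95% of all windows, 0 of 18 shared (up to 18.5%) and 3 of 57 gained (5.26%, 1.1 to 14.6). A match is a description of the letters and does not show that a factor bound there.

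In the 15 shared promoters the core element always lay inside the peak, at a median of 8 bp from its centre (1 to 49), and 8 of the 15 held TGACTCAGC, as at Prdx1, Cxcl10 and Htatip2 above. Of the 7 gained promoters with an element, 6 had it inside the peak, at a median of 22 bp (0 to 162), and 3 held TGACTCAGC. None of these 7 peaks was in the highest 10% of its list, against 11 of the 15 shared ones. In the authors' promoter class, 2 of the 132 gained and 22 of the 29 shared peaks were in that highest 10%. The counts for promoters with an element were thus near those of their classes.

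**Figure D5:**
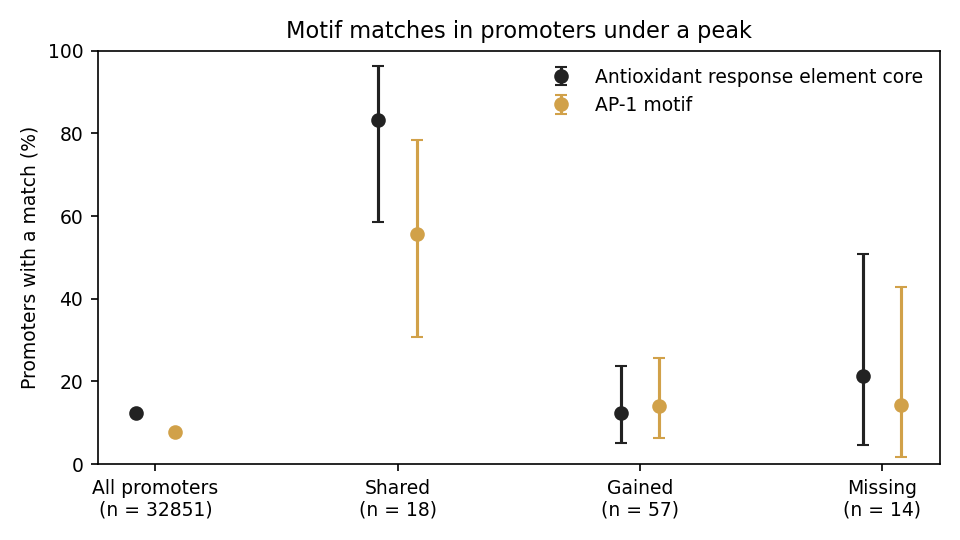
Share of promoter windows (%) with a match to the antioxidant response element core or the AP-1 motif, for all RefSeq promoters and for those under shared, gained and missing peaks, with exact 95% intervals. Shared promoters stand at 83.3% for the core element, above all promoters (12.4%) and gained promoters (12.3%). TGACTCAGC counts as a match to both motifs.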

How the data were processed

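NRF2 ChIP-seq libraries were sequenced as single 50 bp reads, per the labels' protocols. BWA 0.7.12, MACS2 2.1.0, HOMER 4.7 and build mm10 are named in the submitters' processing notes; settings are not given in the sources used here. Each library has 1 deposited list of 300 bp windows. The peak score is a whole number the authors deposited, and the caller's column it came from is not given. Scores only ranked peaks within a list. Places order peaks of equal score by chromosome name and start, while shares of list length use the mean place of tied peaks. GC and CpG content are deposited as a fraction of the window, per the file headers, and printed as percentages. Feature, distance and nearest gene are the authors' HOMER annotation.

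Overlaps (1 bp), counts within 10 kb, exact intervals and motif searches used Python 3.11.15, pandas 2.3.3, numpy 2.4.6 and scipy 1.17.1. The overlap code was checked on simulated peaks and the interval code on a case with a known answer. The counts within 10 kb and the motif searches were not checked in this way. A promoter entered the motif counts when its window shared at least 150 bases with a peak. Members and gene lists were chosen with earlier results of these data known. Genes named were the 20 best-placed shared, gained and missing peaks within 10 kb, the 10 top promoters per class, the 5 largest shifts each way and list members with a peak; a few that meet the rule are not reported here. Alternatives covered score, list length, overlap rule, repeats and distance. The highest-scoring 10% and the protein-coding promoters were chosen after seeing the data.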

Additional observations from a re-analysis of the deposited data

Results flagged for a closer look

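In 3 gene lists the number of members with a peak within 10 kb changed in opposite directions on leucine withdrawal in wild-type and GCN2 knockout cells. The thioredoxin and peroxide removal list changed by 1 gene in wild type, from 8 to 9, and by -1 in knockout, from 7 to 6. Fibroblast markers changed by 1 in wild type, where Thy1 had a peak at place 5060 without leucine, and by -2 in knockout. Macrophage markers changed by -1 in wild type, from 2 genes (Adgre1 and Itgam) to 1 (Spic), and by 2 in knockout. Each rests on 1 or 2 genes and on single libraries, and the difference was not tested.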

How the results depend on the processing

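Of 153 alternative values, 119 stayed within the main interval or within 1.5 times the main count, and 34 did not. Keeping the higher-scoring 50% of each list gave 37.8% of complete-medium and 14.8% of no-leucine peaks shared; 67.9% of shared, 5.46% of gained and 7.99% of missing peaks in the knockout list without leucine; a median GC of 51.8% for gained and 50.8% for missing peaks; and 0.964% of missing peaks at promoters. Equal list length gave 21.0% and 21.1% shared, 25.9% of gained peaks within 10 kb, 51.5% GC, 5.97% of gained peaks in that knockout list and 7 listed genes without leucine alone, beside 7 in complete medium alone. ATF4 and amino acid response genes with a peak without leucine numbered 1 at equal length, in the higher-scoring 50% and at 1 kb, and 7 at 50 kb. Centres within 1000 bp gave 3.4% of gained peaks there. With a 1 kb limit, 16 antioxidant, iron and heme genes had a peak in complete medium, 19 without leucine, 15 in both, 4 without leucine alone and 1 in complete medium alone; with 50 kb the last was 8. The cause of these shifts was not tested. Within the highest-scoring 10%, chosen after seeing the data, the order of shared and gained peaks turned for SINEs (13.2% and 15.2%) and for median GC (50.2% and 49.5%). For both measures the intervals of shared and gained peaks overlapped. No paired analysis was possible because each condition had 1 library and the labels carry no replicate numbers. Read depth is unknown, so how far it set the list lengths was not tested.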

Other observations

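Gained peaks were sometimes clustered at a gene. Among 1409 genes with a gained peak within 10 kb, 75 had 2 and 9 had 3 or more, against 8 and 0 of 411 genes with a missing peak. The gene 1600014C10Rik had 7 gained peaks within 10 kb beside 1 complete-medium peak in that range, and 3 complete-medium peaks at any distance. Those with 3 were Aldh3b1, an aldehyde dehydrogenase, Ccl24, a chemokine, Efhd2, Hspb8, Patz1, Rundc3a, Scn4a and Zcchc14. None of these 8 had a complete-medium peak within 10 kb, though Hspb8 had 1 farther away. Most genes were like them, since 1357 of all 1570 genes with a peak within 10 kb without leucine had none in complete medium. There were more gained peaks than missing peaks to cluster.

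A further 37 of the 213 genes with a peak in both lists had it at different sites only, as at Pgd.

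Chromosome X held 6 of 2336 peaks in complete medium (0.257%, 0.0943 to 0.558) and 21 of 5980 without leucine (0.351%, 0.218 to 0.536), beside 4.41% of protein-coding genes. All 6 complete-medium peaks there were shared, among them Tfe3 and Pir, and 15 were gained.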
